A study of Drosophila melanogaster with 4 samples.

Results

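The pleated septate junction core genes are the 10 genes Nrx-IV, Cont, Nrg, cora, vari, Atpalpha, nrv2, sinu, kune and pck. They were chosen by name, and every transcript of the count table whose FlyBase identifier belongs to one of them was taken. The rule found all 10 genes among the 13771 genes of the table, with 45 of its 29939 transcripts. RNA was sequenced from testes of 5-day-old Drosophila melanogaster males, with 2 libraries of wild type (WT, Canton S) and 2 libraries of the sws1 mutant. Swiss cheese (sws) encodes the fly ortholog of PNPLA6, a phospholipase of membrane lipids, and the comparison asks which transcripts differ in testes of males with the mutant allele. Each library was made from 30 pooled pairs of testes, with ribosomal RNA removed, and was read as 150-bp pairs after a directional preparation. sws1 is a mutant stock and Canton S a separate wild-type stock, so an effect of the allele and an effect of the stock background cannot be told apart.

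The pleated septate junction is a ladder-like contact between the lateral membranes of insect epithelial and glial cells, which limits the passage of solutes between the cells. Its core is a complex of adhesion proteins, cytoplasmic scaffold proteins, the sodium pump and claudins, which depend on each other for their place at the membrane. In the testis the somatic cyst cells that wrap the germ cells join each other by such junctions and form the somatic permeability barrier.

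The libraries held 4498060 and 2692475 counts in WT, against 2364636 and 2218335 counts in sws1. The mutated gene, sws, had 662 and 500 counts in WT, against 166 and 179 in sws1, a log2FC of -1.28 ± 0.15 (SE, n = 2 per genotype; edgeR adjusted p = 2.12e-06). No batch was given in the labels. Replicates of a genotype differed by more than counting noise, with a chi-square per degree of freedom of 3.24 in WT and 3.80 in sws1. Of the marker lists, accessory gland markers summed to 59.5 and 65.4 CPM (counts per 1000000, with library sizes scaled by edgeR's trimmed mean of M values, TMM) in WT against 1181 and 483 in sws1, and ejaculatory duct and bulb markers to 83.2 and 77.1 against 322 and 258. The labelled tissue was testis, and the germline and spermatid markers summed to 4935 and 4974 CPM in WT and to 3220 and 3362 CPM in sws1. Most of that sum came from Mst87F and dj. Mst87F stood at 2515 and 2538 CPM in WT, against 1727 and 1636 in sws1, and dj at 1820 and 1872 against 926 and 1081. By the edgeR test described below, 4 of the 10 markers were lower in sws1, 1 was higher and 5 were not called.

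Of the 10 core genes, 5 were higher in sws1 testes and 0 were lower. The 5 were Nrx-IV, Cont, Nrg, cora and pck, at 1.56-fold to 1.92-fold of the WT level. They comprise the 3 adhesion proteins among the members, a cytoplasmic protein that binds Nrx-IV, and 1 of the 3 claudins. The sodium pump subunits Atpalpha and nrv2, the scaffold gene vari and the claudins sinu and kune did not pass. In bulk RNA, more cells that carry the junction and more RNA per cell cannot be told apart. A call needed an edgeR quasi-likelihood adjusted p under 0.05 together with a log2FC beyond 0.3 in either direction, where log2FC is sws1 over WT on the log2 scale and the p-values were adjusted over all 9634 genes tested. In the same test 9.38% of all genes were called higher in sws1 and 11.5% lower. The counts for the members ranged from 54 to 2938 per library, and all 10 passed the filter on low counts. Before adjustment nrv2 had an edgeR p of 0.0251, on the lower side, and it was not called after adjustment. Both sws1 libraries lay above both WT libraries in CPM in 7 members, which is the case for 31.3% of all genes, and below them in 1 member, which is the case for 28.9%. The median log2FC was 0.47 over the members and 0.02 over all genes tested.

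**Figure D1:**
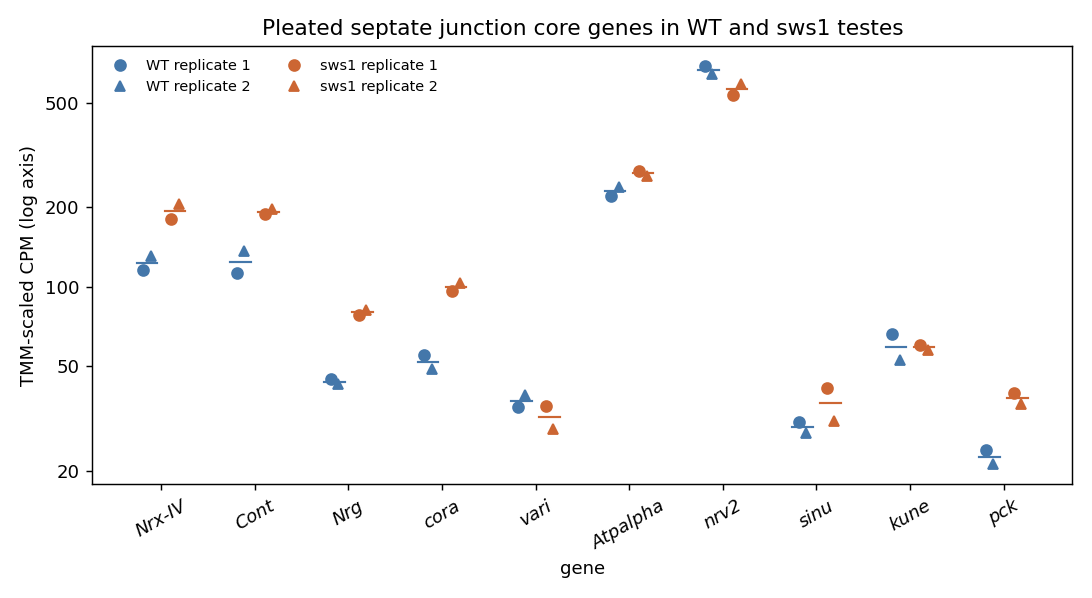
Level of each core gene in the 4 testis libraries, as TMM-scaled CPM on a log axis. Blue marks are WT, orange marks are sws1, circles and triangles are replicates 1 and 2, and short lines are the group means; the sws1 marks of Nrx-IV, Cont, Nrg, cora, Atpalpha, sinu and pck all lie above the WT marks, those of nrv2 lie below, and those of vari and kune overlap with WT.

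Nrx-IV, Cont and Nrg encode the adhesion proteins among the members. Nrx-IV, a neurexin and the ortholog of the vertebrate Caspr proteins, spans the membrane. The gene (FBgn0013997) lies on chromosome 3L, 12146519 to 12156990, in the BDGP6 annotation. It had 494 and 334 counts in the WT libraries and 453 and 472 in the smaller sws1 libraries. Scaled to library size these were 116 and 131 CPM in WT, compared with 181 and 206 CPM in sws1. Both sws1 libraries were above both WT libraries, and the gap between the genotypes was larger than the gap between replicates. The mean rose from 123 ± 10.3 to 193 ± 17.7 CPM (SD, n = 2), a log2FC of 0.65 ± 0.13 (SE; edgeR adjusted p = 0.000942).

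Contactin, encoded by Cont (FBgn0037240, chromosome 3R, 4381306 to 4387018), is a GPI-anchored immunoglobulin-family protein that binds Nrx-IV. Its counts were 478 and 349 in WT and 474 and 451 in sws1, or 112 and 137 CPM against 189 and 197 CPM. The groups did not overlap, and the WT libraries differed from each other more than the sws1 libraries did. The mean rose from 124 ± 17.2 to 193 ± 5.26 CPM (SD, n = 2), a log2FC of 0.64 ± 0.13 (SE; edgeR adjusted p = 0.00124). Nrx-IV and Cont, whose products bind each other, stood at nearly the same level in each library. The ratio of Nrx-IV to Cont in CPM per kilobase of transcript was 0.992 and 0.919 in WT and 0.917 and 1.005 in sws1, so the 2 genotypes overlapped in that ratio.

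Neuroglian, encoded by Nrg (FBgn0264975, chromosome X, 8517373 to 8555170), is the fly member of the L1 family of adhesion molecules. It had 189 and 109 counts in WT, against 196 and 187 in sws1. Its levels were 44.4 and 42.7 CPM in WT, compared with 78.2 and 81.5 CPM in sws1. The replicates lay close together in both genotypes and far apart between them. The mean rose from 43.5 ± 1.24 to 79.9 ± 2.33 CPM (SD, n = 2), a log2FC of 0.87 ± 0.16 (SE; edgeR adjusted p = 0.000413).

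Coracle, encoded by cora (FBgn0010434, chromosome 2R, 19229063 to 19243751), is a protein of the band 4.1 family that binds the cytoplasmic tail of Nrx-IV. It had 233 and 124 counts in WT, against 241 and 237 in sws1. These were 54.8 and 48.5 CPM in WT against 96.2 and 103 CPM in sws1, again without overlap. Of the 10 members it had the highest fold change, 1.92, with a 95% interval of 0.62 to 1.26 on the log2 scale. The mean rose from 51.6 ± 4.40 to 99.7 ± 5.05 CPM (SD, n = 2), a log2FC of 0.94 ± 0.15 (SE; edgeR adjusted p = 0.000111). The interval of cora overlapped those of Nrg, Nrx-IV and Cont, and differences between the fold changes of these genes were not tested.

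Varicose, encoded by vari (FBgn0250785, chromosome 2L, 20788662 to 20797042), is the scaffold protein of the membrane-associated guanylate kinase family that also binds the tail of Nrx-IV. It had 149 and 99 counts in WT, against 88 and 66 in sws1. The levels were 35.0 and 38.7 CPM in WT, compared with 35.1 and 28.8 CPM in sws1, and the groups overlapped. The log2FC was -0.20 ± 0.19 (SE; edgeR adjusted p = 0.514), with a 95% interval of -0.60 to 0.20 that lies below the intervals of cora, Nrg, Nrx-IV, Cont and pck. In CPM per kilobase the ratio of cora to vari was 0.630 and 0.505 in WT and 1.10 and 1.45 in sws1. The exons of vari share 437 bases with Pomp, a gene for a proteasome assembly factor on the other strand. Pomp had 1308 and 657 counts in WT, against 672 and 598 in sws1 (log2FC -0.10 ± 0.12; edgeR adjusted p = 0.598). Whether the counting used strand is not given in the sources used here, so the share of Pomp reads in the value of vari was not tested.

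The Na,K-ATPase takes part in the junction through a role that in Drosophila tracheal tubes does not need its pump activity. Atpalpha encodes its catalytic subunit (FBgn0002921, chromosome 3R, 20948714 to 20976239), with 937 and 613 counts in WT, against 691 and 606 in sws1. Its levels were 220 and 240 CPM in WT, compared with 276 and 264 CPM in sws1. The groups did not overlap, but the step between them was small. The log2FC was 0.23 ± 0.11 (SE; edgeR adjusted p = 0.154), with a 95% interval that ended at 0.47.

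The beta subunit gene nrv2 (FBgn0015777, chromosome 2L, 6789770 to 6798862) was the most abundant member. It had 2938 and 1641 counts in WT, against 1345 and 1352 in sws1, or 690 and 642 CPM against 537 and 589 CPM. It was the only member with both sws1 libraries below both WT libraries. The means were 666 ± 34.1 CPM in WT and 563 ± 37.2 CPM in sws1 (SD, n = 2), a log2FC of -0.24 ± 0.10 (SE; edgeR adjusted p = 0.0940). Without sws1 replicate 2 the log2FC was -0.31 and the edgeR adjusted p 0.0311, so that nrv2 was then called lower in sws1. Between the 2 subunits, both sws1 libraries stood below both WT libraries in their ratio. The ratio of nrv2 to Atpalpha in CPM per kilobase was 5.28 and 4.51 in WT and 3.28 and 3.76 in sws1.

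Sinuous, Kune-kune and the product of pck, also called Megatrachea, are claudins, which seal the space between cells. The claudin gene pck (FBgn0013720, chromosome X, 1470666 to 1472325) had 102 and 54 counts in WT, against 99 and 82 in sws1. These were 24.0 and 21.1 CPM in WT, compared with 39.5 and 35.7 CPM in sws1, without overlap. The mean rose from 22.6 ± 2.005 to 37.6 ± 2.66 CPM (SD, n = 2), a log2FC of 0.73 ± 0.20 (SE; edgeR adjusted p = 0.0103). This call was the least stable of the 5. It was lost with DESeq2 (log2FC 0.72, adjusted p = 0.252), without WT replicate 2 (edgeR log2FC 0.64, adjusted p = 0.0567) and without sws1 replicate 1 (edgeR log2FC 0.65, adjusted p = 0.0684).

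The claudin gene kune (FBgn0033032, chromosome 2R, 5671741 to 5672800) had 280 and 134 counts in WT, against 151 and 132 in sws1. The levels of 65.8 and 52.4 CPM in WT enclosed those of 60.3 and 57.5 CPM in sws1. The log2FC was -0.02 ± 0.17 (SE; edgeR adjusted p = 0.957), with a 95% interval of -0.37 to 0.33, and with upper-quartile scaling its sign turned to 0.03. The claudin gene sinu (FBgn0010894, chromosome 3L, 5559470 to 5561598) had 130 and 71 counts in WT, against 103 and 71 in sws1. Its levels were 30.6 and 27.8 CPM in WT, compared with 41.1 and 30.9 CPM in sws1, where the lower sws1 library lay just above the higher WT library. The log2FC was 0.30 ± 0.20 (SE; edgeR adjusted p = 0.313), with a 95% interval of -0.11 to 0.72 that overlaps the interval of pck, 0.32 to 1.14.

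**Figure D2:**
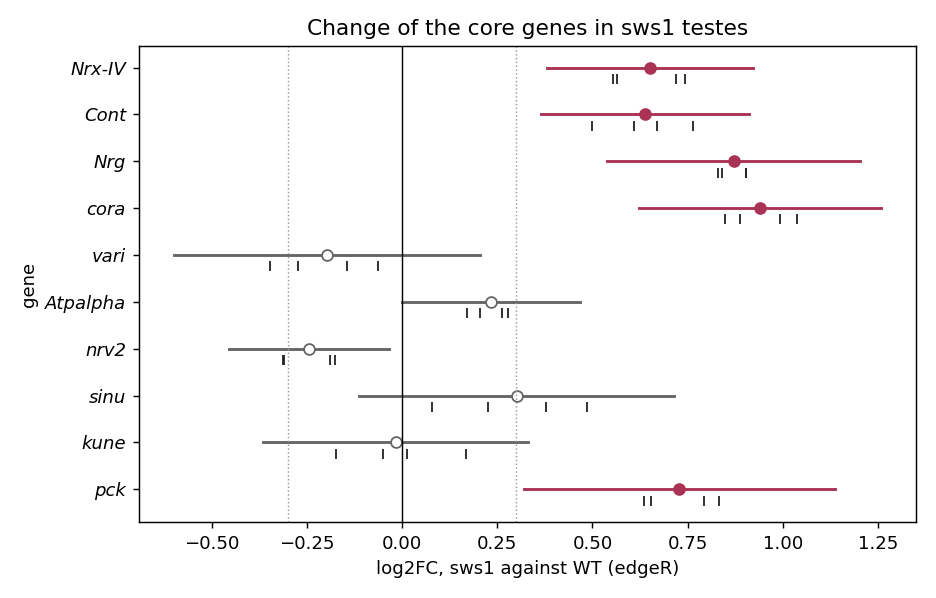
Change of each core gene in sws1 testes as log2FC from the edgeR fit, with its 95% interval as a line and the values obtained by leaving out each library in turn as short ticks below it. Filled red marks passed the test and open grey marks did not; Nrx-IV, Cont, Nrg, cora and pck lie between 0.64 and 0.94, and the dotted lines stand at the threshold of 0.3 in each direction.

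In all alternatives but 1, Nrx-IV, Cont, Nrg and cora were called, the exception being a threshold of 1 on the absolute log2FC, which 0 of the 10 members passed. DESeq2 called 4 members higher, and 3.18% of all the genes it tested. Leaving out 1 library gave a log2FC between 0.55 and 0.74 for Nrx-IV, between 0.50 and 0.76 for Cont, between 0.83 and 0.90 for Nrg and between 0.85 and 1.04 for cora. The summed level of these 4 genes was 328 and 359 CPM in WT, compared with 544 and 587 CPM in sws1. Since each of the 4 was called higher in the same libraries, the gap in their sum adds no support. All 10 members summed to 1394 and 1381 CPM in WT, compared with 1533 and 1594 CPM in sws1. The summed level of Atpalpha and nrv2 was 911 and 882 CPM in WT, compared with 812 and 853 CPM in sws1, and that of the 3 claudins was 120 and 101 CPM against 141 and 124 CPM.

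Within the junction the members differed widely in level, so they were put in order by CPM per kilobase of transcript. In WT the order by the mean was nrv2 at 266, kune at 55.8, Atpalpha at 54.5, Cont at 26.2, Nrx-IV at 25.0, pck at 17.5, vari at 15.6, sinu at 14.1, cora at 8.81 and Nrg at 8.30 CPM per kilobase. The WT libraries of kune and Atpalpha overlapped in level, as did those of Cont and Nrx-IV, of pck and vari, and of cora and Nrg, so these neighbours cannot be ordered. The lower WT library of vari and the higher of sinu both stood at 14.8 CPM per kilobase, so their order is not firm either. In sws1 the means were 225 for nrv2, 55.6 for kune, 64.0 for Atpalpha, 40.7 for Cont, 39.1 for Nrx-IV, 29.2 for pck, 13.5 for vari, 17.4 for sinu, 17.0 for cora and 15.2 for Nrg, again in CPM per kilobase. By the mean, vari was the lowest of the 10 in sws1. Its sws1 libraries, at 14.9 and 12.2 CPM per kilobase, came close to those of Nrg, at 14.9 and 15.5. The ratio of Nrx-IV to nrv2 on the same scale was 0.0853 and 0.103 in WT and 0.171 and 0.177 in sws1.

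Reads had been counted per transcript, and the members show what that counting does to genes with several isoforms. Of the 45 transcripts, 30 had counts in at least 1 library and 15 had none. Of those with counts, 14 have no exon base of their own, since each of their bases also lies in at least 1 other transcript of the gene. Only Cont, sinu and kune have a single transcript. In 4 transcripts the count went between 0 and at least 50 in libraries of the same genotype. Nrg-RC had 117 and 94 counts in WT, against 175 and 0 in sws1, while Nrg-RD had 0 and 0 in WT and 0 and 120 in sws1. The gene total of Nrg was steady in the same libraries, at 196 and 187 counts in sws1. The other cases were Atpalpha-RB, with 109 and 84 counts in WT, against 0 and 85 in sws1, and nrv2-RF, with 145 and 114 against 146 and 0.

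Transcripts tested 1 by 1 gave no call for any member with edgeR. Of the 23 member transcripts that passed the filter, 0 were called, as were 0% of all 14158 transcripts tested, and the lowest adjusted p was 0.0994 for cora-RA. At an unadjusted p under 0.05 there were 6 member transcripts and 2414 transcripts in all. The common biological coefficient of variation was 0.607 in the fit of transcripts and 0.106 in the fit of genes. With DESeq2, which called 9.43% of the transcripts it tested, 4 member transcripts were called. These were Nrx-IV-RB (log2FC 0.66, adjusted p = 0.00367), Cont-RA (0.64, adjusted p = 0.00194) and cora-RA (1.28, adjusted p = 1.13e-07), all higher in sws1, and cora-RF, which was lower with an adjusted p of 0.0131.

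The isoform shares of the called genes were compared by their counts. For cora, cora-RA took 178 and 103 counts in WT, against 241 and 237 in sws1, and cora-RF took 52 and 21 in WT and 0 and 0 in sws1. In sws1 the 2 libraries thus assigned every cora count to 1 transcript. For Nrx-IV, whose 2 transcripts differ by mutually exclusive exons of 197 bases each, Nrx-IV-RB took 462 and 328 counts in WT, against 427 and 466 in sws1. The other form, Nrx-IV-RA, took 32 and 6 in WT and 26 and 6 in sws1, so its share varied as much between replicates as between genotypes. All counts of pck fell on 1 of its 3 transcripts, pck-RC.

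Nrg isoforms can be grouped by coding length, where the shorter cytoplasmic tail marks the form of epithelia and the longer tail the form of neurons. Transcripts with a coding length of 3717 bases took 176 and 98 counts in WT, against 194 and 164 in sws1. Those with 3906 bases took 13 and 11 in WT and 2 and 17 in sws1, and the transcript with 3927 bases had 0 and 0 in WT and 0 and 6 in sws1. The short form therefore held between 87.7% and 99.0% of the Nrg counts in the 4 libraries, with overlap between the genotypes. Nrg-RC and Nrg-RD, which took most of the short-form counts, have no exon base of their own. The shares may therefore reflect how the counting assigned shared reads, and the use of either tail was not tested. For Atpalpha, the transcript Atpalpha-RA, with a coding length of 3123 bases, took 44.0% and 48.8% of the counts in WT and 65.3% and 50.2% in sws1. Atpalpha-RA has no exon base of its own either. For nrv2, the 3 transcripts with a coding length of 969 bases took 81.4% and 84.2% in WT and 79.3% and 84.3% in sws1, and the groups overlapped.

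**Figure D3:**
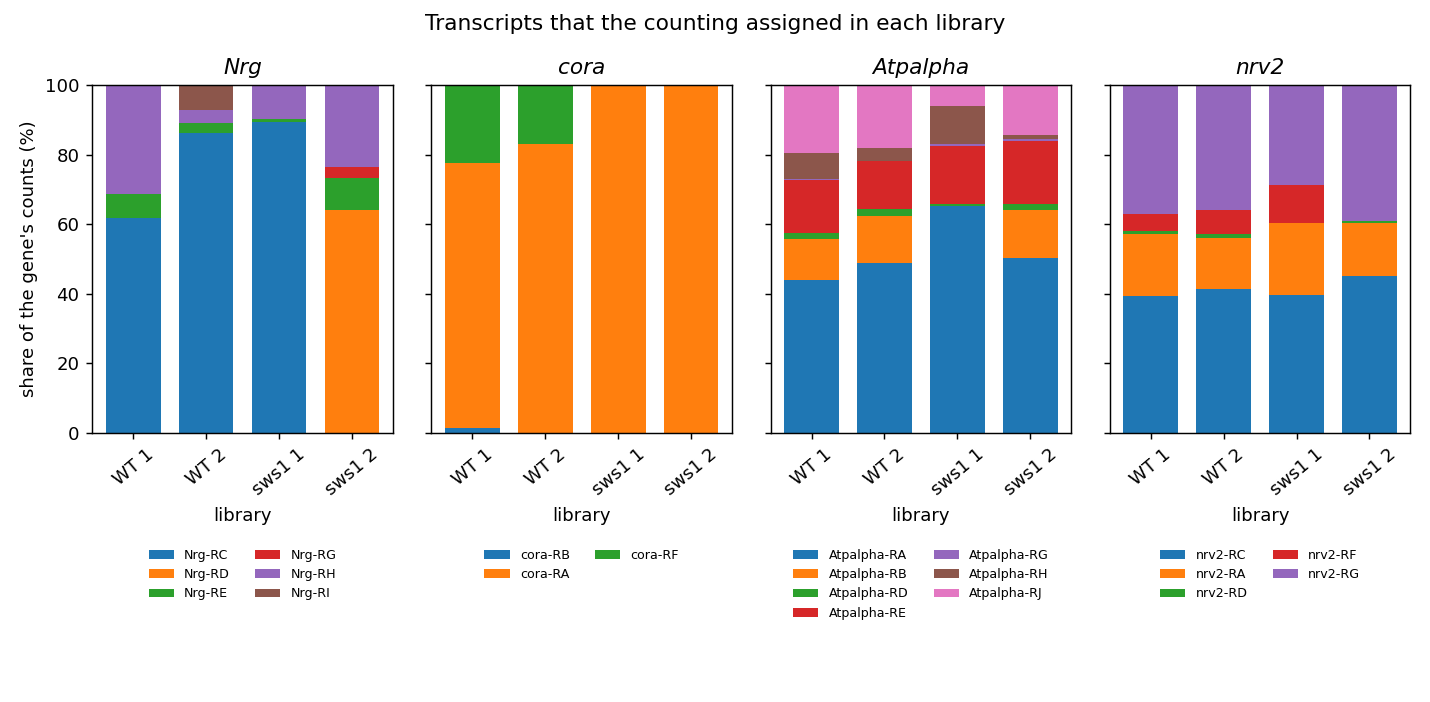
Share of the counts of Nrg, cora, Atpalpha and nrv2 that each transcript took in each library, in percent. Each bar is 1 library and each colour 1 transcript; Nrg-RC holds most counts in the first 3 bars and none in sws1 replicate 2, where Nrg-RD takes its place, and cora-RA holds all cora counts in both sws1 bars.

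The other genes of septate junctions were read from the same fit of counts summed per gene. Of 22 such genes, 21 were tested, 5 were higher in sws1, 0 were lower and 16 were not called, beside 9.38% higher and 11.5% lower among all genes. Their median log2FC was 0.30, against 0.02 for all genes tested. Both sws1 libraries lay above both WT libraries in 11 of the 21 and below in 1, beside 31.3% and 28.9% of all genes. Of the called genes, bark and mesh had already been reported by the study from these libraries. It also measured both by qRT-PCR on RNA of WT and sws1 testes and lists them as upregulated there. The study names the core gene cora as upregulated in these libraries too, so neither count is independent evidence of a direction. For protein, the study reports absent or weak staining of Nrg, Fas3 and Dlg-1 near the nuclei of mature spermatids in sws1, while Coracle was stained. The values here are of RNA only.

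Among 11 other proteins of the pleated junction, 3 were called and 8 were not. Lac, a GPI-anchored immunoglobulin-family protein needed for the shape of tracheal tubes, had 662 and 384 counts in WT, against 647 and 530 in sws1 (log2FC 0.68, edgeR adjusted p = 0.000294). Mcr, a thioester-family protein of the junction, had 412 and 292 counts in WT, against 370 and 371 in sws1 (log2FC 0.56, edgeR adjusted p = 0.00519). Fas3, an immunoglobulin-family adhesion protein, had 155 and 119 counts in WT, against 156 and 179 in sws1 (log2FC 0.77, edgeR adjusted p = 0.00345). All 3 were higher in CPM in both sws1 libraries than in either WT library. Without WT replicate 1 the adjusted p was 0.0837 for Mcr and 0.0639 for Fas3 with edgeR, and that of Fas3 was 0.0698 with DESeq2, so that these calls were lost. The list of 11 had a median log2FC of 0.48.

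Of the 4 lateral polarity scaffolds, dlg1, scrib, l(2)gl and yrt, 0 were called by edgeR, with a median log2FC of 0.20. Of the 3 genes of the tricellular junction, the corner where 3 cells meet, 1 was called. This was bark, whose product Bark beetle organises that corner, with 84 and 75 counts in WT, against 218 and 146 in sws1 (log2FC 1.66, edgeR adjusted p = 2.21e-05). Of the smooth septate junction, the type found in the midgut and Malpighian tubules, 3 of 4 genes were tested and 1 was called. This was mesh, a membrane protein of that junction, with 50 and 50 counts in WT, against 102 and 94 in sws1 (log2FC 1.43, edgeR adjusted p = 0.000111). The estimates for bark and mesh were above those of all 10 core genes, and those differences were not tested.

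**Figure D4:**
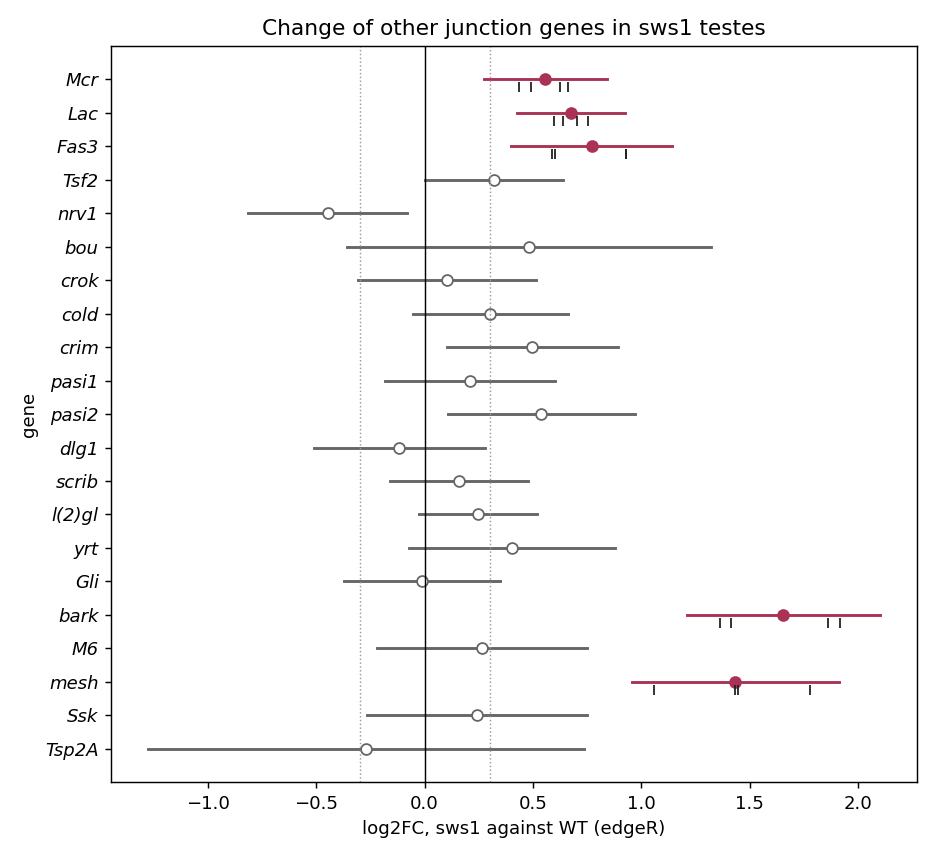
Change of the 21 other septate junction genes tested, as log2FC from the edgeR fit with 95% intervals. Filled red marks passed the test, open grey marks did not, dotted lines stand at 0.3 in each direction, and short ticks below the called genes give the values without each library in turn; bark at 1.66 and mesh at 1.43 stand highest, and Mcr, Lac and Fas3 lie between 0.56 and 0.77.

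The sodium pump family was also taken as a whole, since nrv2 and Atpalpha are 2 of its 8 genes tested. In this list 0 genes were higher, 1 was lower and 7 were not called, with a median log2FC of -0.30, beside 9.38% of all genes called higher and 11.5% called lower. The lower gene was CG5250, annotated with the family's beta subunits, with 398 and 226 counts in WT, against 131 and 106 in sws1 (log2FC -0.89, edgeR adjusted p = 0.000289). JYalpha, the catalytic subunit gene known for its need in male fertility, had 3048 and 1757 counts in WT, against 1656 and 1706 in sws1. Its level per kilobase, between 211 and 238 CPM in the 4 libraries, was above that of Atpalpha, between 52.2 and 65.3 CPM per kilobase, and its interval of log2FC was -0.21 to 0.21.

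Of 3 regulators of junction genes, 1 was called, lower in sws1, beside 9.38% higher and 11.5% lower among all genes. The transcription factor gene grh, whose product Grainy head acts on genes of epithelial barriers in Drosophila, had 149 and 107 counts in WT, against 9 and 6 in sws1. Its log2FC was -3.59 ± 0.29 (SE; edgeR adjusted p = 8.00e-09). The 5 called core genes were higher in the same libraries, and a link between grh and these genes was not tested.

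Testis RNA comes from germ cells, cyst cells, the muscle sheath and any attached tissue. Several marker lists had higher sums in sws1, as the called core genes had higher levels. The 4 cyst cell markers summed to 89.1 and 87.3 CPM in WT, compared with 108 and 136 CPM in sws1, with 1 called higher. The 9 muscle sheath markers summed to 592 and 617 CPM in WT, compared with 804 and 739 CPM in sws1, with 3 called higher. For the 5 fat body genes the sums were 375 and 326 against 716 and 643 CPM, with 2 of 3 tested called higher. Most of the sum was apolpp, at 335 and 292 CPM in WT against 650 and 583 in sws1. Apoltp was also called higher and Lsp2 was not called. Fbp1 and Fbp2 had at most 3 counts in any library and were not tested. In the accessory gland list 6 of 9 were called higher, and in the ejaculatory duct and bulb list 3 of the 3 tested were. Among 10 germline and spermatid markers 1 was higher and 4 were lower. Among all genes 9.38% were called higher and 11.5% lower.

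Markers of further cell types were summed in the same way. The 5 glial markers summed to 46.8 and 48.1 CPM in WT, compared with 78.6 and 69.7 CPM in sws1. Of these, 1 of 2 tested was called higher, and the 5 are named here after their values were seen. The called gene, moody, which encodes a receptor of the glia that form the blood-brain barrier, made up most of the sum and had 140 and 98 counts in WT, against 172 and 139 in sws1 (log2FC 0.87, edgeR adjusted p = 0.000871). The gene repo, which defines glia, had 1 and 0 counts in WT, against 2 and 1 in sws1. The other glial markers were not higher in sws1. Eaat1 had 48 and 20 counts in WT, against 21 and 18 in sws1 (log2FC -0.27, edgeR adjusted p = 0.613). The counts of alrm were 4 and 3 against 1 and 0, and those of wrapper were 6 and 2 against 1 and 2. The 7 markers of epithelium and trachea summed to 86.2 and 88.1 CPM against 112 and 97.6 CPM, with 1 of 5 tested called higher. Hemocyte markers summed to 300 and 253 CPM in WT, compared with 309 and 310 CPM in sws1, with 1 of 5 called higher, and neuron markers to 53.6 and 30.9 CPM against 27.5 and 40.1 CPM, with 0 of 4 called. No list had a marker at 0 in all libraries. In sws1, the accessory gland, duct and bulb, muscle sheath, fat body, glial and epithelium and trachea sums were higher in replicate 1. The germline, cyst cell, hemocyte and neuron sums were higher in replicate 2. In CPM, pck, Atpalpha, sinu, kune and vari were higher in replicate 1, and Nrx-IV, Cont, Nrg, cora and nrv2 in replicate 2. Some of the gaps were small, as for the hemocyte sum at 309 and 310 CPM and Cont at 189 and 197 CPM. These gaps between single libraries were not tested. The part of any of these cell types in the result for the core genes was not tested.

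**Figure D5:**
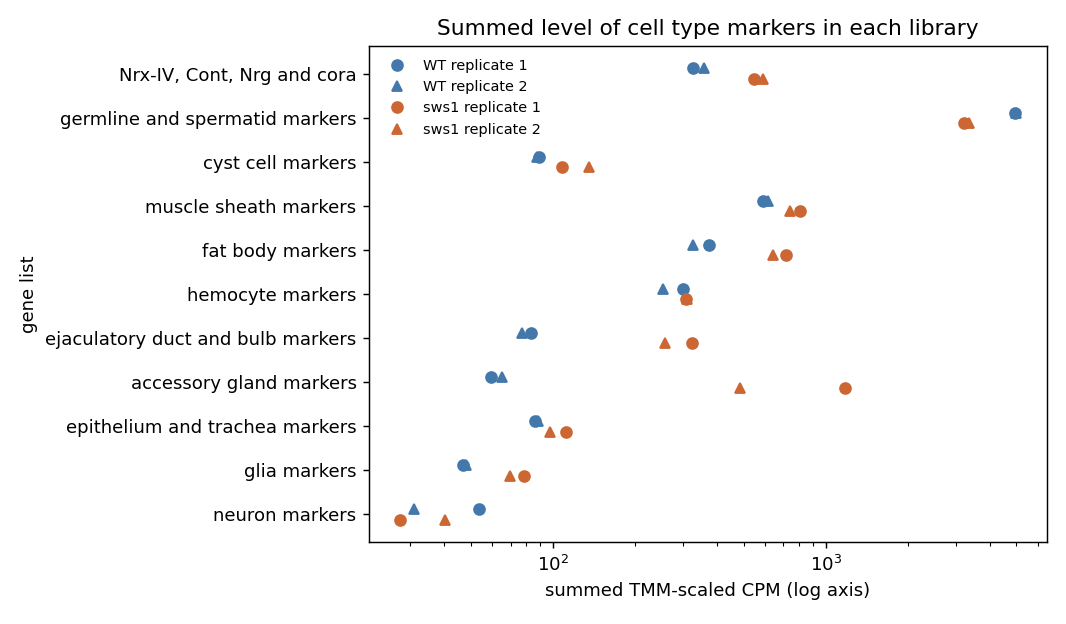
Summed level of Nrx-IV, Cont, Nrg and cora and of 10 lists of cell type markers in each library, in TMM-scaled CPM on a log axis. Blue is WT, orange is sws1, and circles and triangles are replicates 1 and 2. The 4 core genes, all of them called higher in these libraries, stand at 328 and 359 CPM in WT and 544 and 587 in sws1. The accessory gland list reaches 1181 in sws1 replicate 1. The germline sum, mostly Mst87F and dj, is lower in sws1.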

How the data were processed

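Reads had been trimmed (Trimmomatic 0.40), aligned to the Drosophila reference genome (Hisat2 2.2.2) and counted per transcript (htseq-count 2.0.3) by the authors; the deposited table holds these raw counts for 29939 transcripts in 4 libraries. The genome release, the strand setting and the treatment of reads that fit several transcripts are not given in the sources used here.

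Transcripts were assigned to genes with the Ensembl release 115 annotation of BDGP 6.54 (10 did not match), and counts were summed per gene. Genes were filtered with filterByExpr, scaled by TMM and tested with edgeR 4.0.16 (robust quasi-likelihood fit) in R 4.3.3, WT against sws1 with 2 libraries each, with Benjamini-Hochberg adjustment over all genes tested. The thresholds were an adjusted p of 0.05 and a log2FC of 0.3 in either direction. SE was taken as the absolute log2FC over the square root of F, and 95% intervals used the fit's degrees of freedom. CPM are TMM-scaled, and levels per kilobase used the transcript length weighted by counts. The code was tested on simulated data. Alternatives were DESeq2 1.42.0, other scalings, filters and thresholds, a replicate block and leaving out each library.

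The members and gene lists were chosen with earlier results of these data known. All members were named, and of the other junction lists every gene called. Marker lists are given as sums, with single genes named only for the glial, fat body and germline lists. These genes were named after their values were seen. Libraries are pools of animals, so p-values measure the spread between such pools only.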

Additional observations from a re-analysis of the deposited data

How the results depend on the processing

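The number of core genes called higher in sws1 was 4 or 5 under every alternative except an absolute log2FC above 1, which left 0 core genes, 2 other junction genes, and 372 higher and 221 lower genes among all tested. DESeq2 called 363 genes higher and 631 lower, against 904 and 1109 with edgeR, and 4 core transcripts against 0; a minimum of 10 counts in every library gave 1 core transcript. Without each library in turn the number of core genes called lower ranged from 0 to 1, the 1 being nrv2 without sws1 replicate 2. The causes of these changes were not tested. Upper-quartile scaling moved the median log2FC of all genes from 0.02 to 0.07 and gave 1111 higher and 938 lower genes, with the same number of core genes called, 5. The sign of kune, which was never called, was positive with that scaling, without WT replicate 1 (0.17) and without sws1 replicate 2 (0.01).

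The replicate numbers did not pair the libraries: the replicate differences of the 2 genotypes had a correlation of -0.01 over 9634 genes, which are not independent replicates. With a replicate block 5 core genes and 952 genes in all were called higher, 0 core genes and 1152 genes in all lower, and 0 core transcripts were called. With 2 libraries per genotype an exact permutation test of a single gene cannot pass the threshold, and the SE was widest for the members with few counts: 0.20 for sinu, 0.20 for pck and 0.19 for vari.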
